A study of Mus musculus with 15 samples.

Results

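The aquaporins examined here were Aqp1, Aqp3, Aqp4, Aqp7, Aqp8, Aqp9 and Aqp11, which are 7 of the 45804 genes with a unique symbol in a table of cecal mRNA. Each row was found by its gene symbol. The cecum was emptied and its polyadenylated RNA sequenced from 15 wild-type C57BL/6 mice, labelled as 20 weeks old. In the AIMD group (antibiotic-induced microbiome depletion), 7 mice received antibiotics (amphotericin B, neomycin, ampicillin, metronidazole and vancomycin) by gavage 2 times a day for 30 days, and the 8 vehicle-treated mice received water on the same schedule. Levels are read counts scaled to gene length and library depth (FPKM). Of the 7 aquaporins, 4 (Aqp8, Aqp11, Aqp1 and Aqp4) reached 0.5 FPKM in at least 7 mice and were tested, and Aqp3, Aqp7 and Aqp9 did not.

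Aquaporins are membrane channels that let water follow an osmotic gradient across cells. Several also carry small solutes. Aqp3, Aqp7 and Aqp9 are aquaglyceroporins, which pass glycerol, and Aqp8 also passes hydrogen peroxide. In the large intestine the epithelium takes up salt and water from the lumen, and Aqp8 is a known water channel of its surface colonocytes. Aqp1 is typical of endothelium and red cells, and Aqp4 is best known from glia and from some epithelial basolateral membranes.

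Depth and tissue make-up varied among the mice. The whole reads recovered from the FPKM numbered 8676378 to 18102762 per AIMD mouse and 4370775 to 14402059 per vehicle-treated mouse. The tissue was rich in epithelium, with a summed level of 7 epithelial markers of 3154 to 4653 FPKM in AIMD mice and 2871 to 3875 FPKM in vehicle-treated mice. AIMD replicate 4 stood apart, with 213 FPKM of 6 smooth muscle markers against at least 549 in the other AIMD mice, and 5.72 FPKM of 6 neutrophil markers against at most 1.98. Most of the latter sum was S100a8 (2.42 FPKM) and S100a9 (2.53 FPKM). Csf3r, Cxcr2 and Mmp9 were not highest in this mouse, and all 6 neutrophil markers were under the filter. Vehicle replicate 8 had the fewest reads and 3018 FPKM of the smooth muscle markers, against at most 1373 in the other vehicle-treated mice. Fabp6, a bile acid binding protein typical of ileum, exceeded 1000 FPKM in vehicle replicates 5, 7 and 8 and was 225 FPKM in AIMD replicate 6. Other ileal markers were mixed. Apoa1, Mttp and Sis were likewise highest in vehicle replicates 5, 7 and 8 and AIMD replicate 6. Mttp was 2.12, 2.49 and 5.63 FPKM in those vehicle replicates and at most 0.550 in the other vehicle-treated mice. It was 2.18 FPKM in AIMD replicate 6 and at most 0.913 in the other AIMD mice. Of 6 tested ileal markers in a list of 8, 3 passed an adjusted p of 0.05 (limma), all higher in AIMD mice. That is 50%, beside 36.1% of all tested genes. These 3 were Slc10a2 (70.2 to 135 FPKM under AIMD, 2.17 to 14.3 under vehicle), Apob and Apoa4. Fabp6, Apoa1 and Mttp did not pass. Apoa4 was tested because all 7 AIMD mice, the group in which it was called higher, exceeded 0.5 FPKM. Vehicle-treated mice other than replicates 5, 7 and 8 had at most 0.149 FPKM of it. Its call therefore gives no support to the list, although the share includes it. In whole tissue, fewer cells of a type and less RNA per cell cannot be told apart.

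Circadian clock genes divided both groups. A score was formed from the mean standardised level of 5 genes of the Arntl phase minus that of 8 tested genes of the Nr1d1 and Per phase. It was above 0 in AIMD replicates 1 to 3 and vehicle replicates 1 to 4, and below 0 in AIMD replicates 4 to 7 and vehicle replicates 5 to 8. The labels give no time of sacrifice, although the study's own model included it. Mice on either side of 0 occurred in both groups, and results are given within each side.

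Aqp8 was by far the most abundant aquaporin, and it fell in AIMD mice together with Aqp11. Of the 4 tested aquaporins, 2 passed an adjusted p of 0.05 and both were lower in AIMD mice, in a comparison in which 36.1% of the 11983 tested genes were called, 16.7% lower and 19.4% higher. Neither had groups free of overlap, which 3.30% of tested genes had in the lower direction. Mean Aqp8 was 48.1% lower and mean Aqp11 44.8% lower than in vehicle-treated mice. Neither Aqp1 nor Aqp4 passed the test, and their mean levels were 1.52 and 2.10 times those of vehicle-treated mice, the latter through a single animal. The upstream sequences of Aqp8 and Aqp11 are shown here because these were the members that fell.

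Aqp8 lies on chromosome 7 at 123462291 to 123468004, plus strand, and Aqp11 on the same chromosome at 97724006 to 97738289, minus strand (GRCm38, GENCODE M21). The sequences come from RefSeq (GRCm38.p6), are written in the direction of transcription, and stop before the transcription start of both annotations. Aqp8 is at chr7:123462044-123462290 and Aqp11 at chr7:97738290-97738497. Capitals mark the matches to the motifs searched for, on either strand.
Aqp8: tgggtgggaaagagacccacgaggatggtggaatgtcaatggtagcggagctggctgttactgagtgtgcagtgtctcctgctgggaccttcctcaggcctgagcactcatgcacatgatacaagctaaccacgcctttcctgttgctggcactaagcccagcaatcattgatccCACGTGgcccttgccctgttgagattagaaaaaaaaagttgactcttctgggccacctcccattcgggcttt
Aqp11: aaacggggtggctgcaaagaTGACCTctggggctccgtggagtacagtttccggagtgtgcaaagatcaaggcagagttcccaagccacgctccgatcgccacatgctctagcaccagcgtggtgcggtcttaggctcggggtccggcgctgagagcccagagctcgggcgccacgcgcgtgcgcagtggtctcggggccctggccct

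Of 6 motifs searched for on both strands (the TATA box TATAAA, the CCAAT box, the GC box GGGCGG, the E-box CACGTG, the nuclear receptor site AGGTCA and the steroid receptor site AGAACA), each window held 1 match. The Aqp8 window held CACGTG, the E-box sequence that CLOCK and ARNTL can bind, 72 bases before the end of the window, as did 5.95% of the 32851 promoter entries cut to the same 247 bases. The Aqp11 window held AGGTCA, a half-site of many nuclear receptors, read on the opposite strand as TGACCT, as did 11.9% of entries cut to 208 bases. The windows shared no motif. GC content was 53.0% for Aqp8, near the median of 52.2%, and 65.4% for Aqp11, above that of 84.7% of entries. These matches describe letters only and were not tested as binding sites.

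Aqp8, the water and peroxide channel of the colonocyte surface, ranged from 367 to 733 FPKM with a median of 506.5 in AIMD mice. In vehicle-treated mice it ranged from 607 to 1534 FPKM with a median of 1001. The groups overlapped only through AIMD replicate 4 and vehicle replicate 4: 6 of 7 AIMD mice lay below every vehicle-treated mouse, and 7 of 8 vehicle-treated mice lay above every AIMD mouse. The mean was 506.6 ± 114.7 FPKM (SD, n = 7) under AIMD and 975.5 ± 272.5 FPKM (SD, n = 8) under vehicle. Its log2 fold change was -0.93 (SE 0.18, 95% confidence interval -1.31 to -0.54), with an adjusted p of 0.00109 by limma. Exact permutation of the group labels gave p = 0.000777, two-sided. Its size exceeded that of 91.7% of tested genes.

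Counting was deep for Aqp8, with 6661 to 16921 reads in each mouse, so that counting error was small beside the spread between mice. Aqp8 ranked 29th to 80th among all genes in vehicle-treated mice and 73rd to 108th in AIMD mice. Its share of the summed FPKM of the 7 aquaporins was 92.4% to 97.7% in every mouse.

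**Figure D1:**
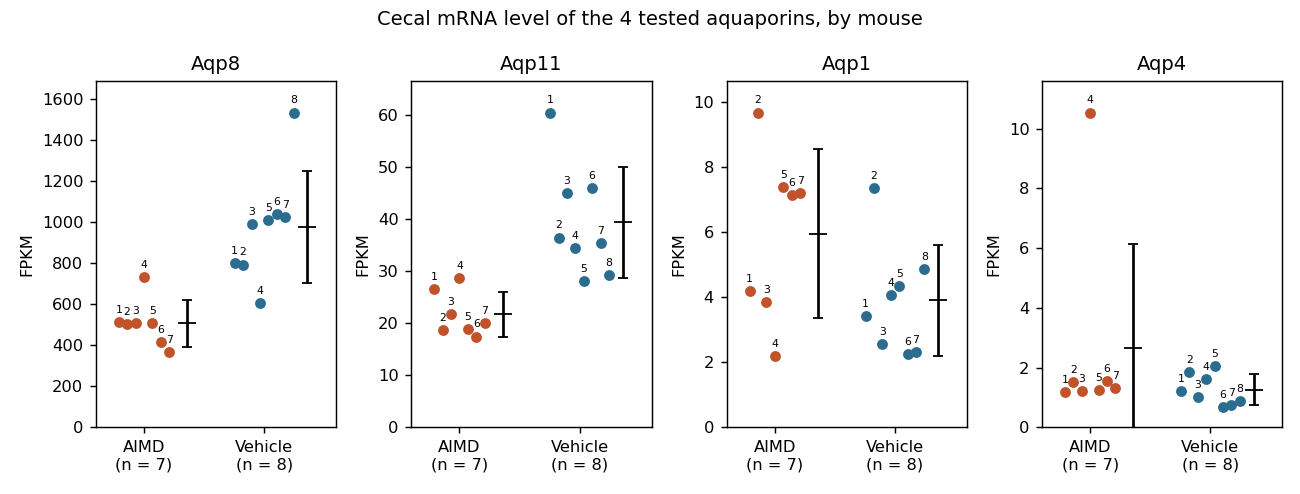
FPKM of Aqp8, Aqp11, Aqp1 and Aqp4 in each mouse (points, numbered by replicate), with the mean and SD of each group in black and the axis starting at 0. All but 1 AIMD mouse lie below every vehicle-treated mouse for Aqp8 and for Aqp11, whereas the high Aqp4 mean of AIMD mice comes from replicate 4 at 10.5 FPKM, and its SD bar is cut at 0.

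The clock-gene score also divided the values of Aqp8. Among vehicle-treated mice it was 607 to 992 FPKM in the 4 mice with a score above 0 and 1011 to 1534 FPKM in the 4 with a score below 0, so that these sets did not overlap, as was also the case for 14.0% of all tested genes. Among AIMD mice it was 503 to 513 FPKM and 367 to 733 FPKM, respectively. The log2 difference between AIMD and vehicle-treated mice was -0.63 where the score was above 0 (exact permutation test, 3 against 4 mice, p = 0.0571) and -1.22 where it was below 0 (exact permutation test, 4 against 4 mice, p = 0.0286, the smallest it can give). Whether these 2 differences differ from each other was not tested. With the score above or below 0 as a term in the model, the log2 fold change was -0.95 (adjusted p = 0.000556, limma). The 3 vehicle-treated mice with high Fabp6 also had scores below 0, and without them the fold change was -0.75 (adjusted p = 0.00611).

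Aqp11, a distant family member found in intracellular membranes, ranged from 17.4 to 28.7 FPKM with a median of 20.0 in AIMD mice. In vehicle-treated mice it ranged from 28.1 to 60.4 FPKM with a median of 35.9. As for Aqp8, AIMD replicate 4 was the only AIMD mouse within the vehicle range, at 28.7 FPKM, and it exceeded a single vehicle-treated mouse. Mean Aqp11 was 21.7 ± 4.3 FPKM (SD, n = 7) against 39.4 ± 10.7 FPKM (SD, n = 8). The log2 fold change was -0.82 (SE 0.16, 95% confidence interval -1.17 to -0.48, adjusted p = 0.00105, limma), and the exact permutation test gave p = 0.000622. Aqp11 had 169 to 651 reads per mouse.

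Aqp11 was compared on either side of the clock-gene score as well. In vehicle-treated mice it was 34.4 to 60.4 FPKM where the score was above 0 and 28.1 to 46.0 FPKM where it was below 0, and these ranges overlapped. The log2 difference between treatments was -0.94 in the former (exact permutation test, p = 0.0286) and -0.69 in the latter (exact permutation test, p = 0.0571). The ratio of Aqp8 to Aqp11 had a median of 23.9 under AIMD (18.4 to 27) and 22.4 under vehicle (13.3 to 52.5). The mean of its log2 value differed by -0.09 and did not pass the test (p = 0.733 by exact permutation test). That does not show the ratio to be equal in both groups.

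**Figure D2:**
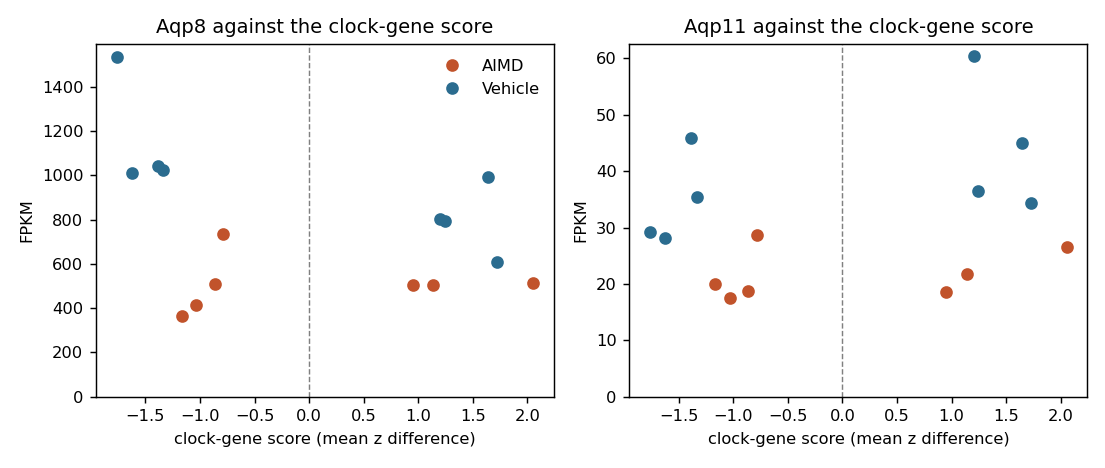
FPKM of Aqp8 and Aqp11 in each mouse against the clock-gene score, the difference between the mean standardised levels of both sets of clock genes. The dashed line marks a score of 0, on either side of which mice of both groups lie. Vehicle-treated mice with a score below 0 lie at 1011 to 1534 FPKM of Aqp8, above the 4 others, while the Aqp11 values of vehicle-treated mice overlap across 0.

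Of 7 tested epithelial markers, 3 rose in AIMD mice and 1, Krt18, fell, where 19.4% of all tested genes were called higher and 16.7% lower. The summed levels given above overlapped between the groups. Taken relative to that sum, the log2 difference was -1.21 for Aqp8 and -1.12 for Aqp11 (p = 0.000155 for each by exact permutation test, the smallest it can give). Surface colonocyte markers summed to 7225 to 13251 FPKM in AIMD mice and 4558 to 7896 FPKM in vehicle-treated mice, with 3 of 7 called higher and 1 lower. Much of this sum was Guca2a (mean 4613 FPKM under AIMD, 2705 under vehicle) and Saa1 (3068 and 1287), both called higher, as was Ceacam20. Slc26a3 (0.15, adjusted p = 0.661, limma), Car4 (-0.30, adjusted p = 0.337) and Krt20 did not pass the test, and Slc20a1 fell (-0.90). The markers thus did not move together.

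Aqp1, the water channel of endothelium and red cells, lies on chromosome 6 at 55336432 to 55348555, plus strand. It ranged from 2.19 to 9.68 FPKM with a median of 7.13 in AIMD mice. In vehicle-treated mice it ranged from 2.25 to 7.35 FPKM with a median of 3.74. The groups overlapped widely, since 2 AIMD mice exceeded every vehicle-treated mouse and AIMD replicate 4 was the lowest of all. Mean Aqp1 was 5.95 ± 2.60 FPKM (SD, n = 7) against 3.90 ± 1.70 FPKM (SD, n = 8). The log2 fold change was 0.52 (SE 0.28, 95% confidence interval -0.062 to 1.095) and did not pass the test (adjusted p = 0.151, limma; exact permutation test, p = 0.122).

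The call for Aqp1 turned on AIMD replicate 4: without it the log2 fold change was 0.71 (adjusted p = 0.0334, limma). Markers of endothelium and red cells were lower or not called. Of 6 tested endothelial markers none was called higher and 2 were called lower, with summed levels of 9.49 to 15.8 FPKM in AIMD mice and 13.6 to 19.3 FPKM in vehicle-treated mice. Of 5 tested red cell markers, 2 were called lower. The shares called, 33.3% for endothelium and 40% for red cells, were near the 36.1% over all tested genes, of which 16.7% were called lower. The log2 difference of Aqp1 was 0.38 within the mice with a clock-gene score above 0 (exact permutation test, p = 0.457) and 0.66 within those below 0 (exact permutation test, p = 0.229). Relative to the endothelial sum, the log2 difference of Aqp1 was 1.07 (p = 0.00995 by exact permutation test).

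Aqp4, a channel of glia and some epithelia, ranged from 1.18 to 1.56 FPKM in 6 AIMD mice and reached 10.5 FPKM in AIMD replicate 4. In vehicle-treated mice it ranged from 0.698 to 2.06 FPKM with a median of 1.11. All AIMD mice except replicate 4 lay within the vehicle range. AIMD replicate 4 had 8.18 times the median of the other AIMD mice, from 446 reads. The log2 fold change of 0.48 (SE 0.34, 95% confidence interval -0.23 to 1.19) did not pass the test (adjusted p = 0.281, limma). Without that mouse it was 0.11 (adjusted p = 0.641, limma). Within the mice with a clock-gene score above 0 the log2 difference was -0.08 (exact permutation test, p = 0.686), and within those below 0, which include AIMD replicate 4, it was 0.94 (exact permutation test, p = 0.171). Another annotated gene overlaps Aqp4 on the opposite strand, and whether the counting used strand is not given in the sources used here.

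The glial and neuronal markers did not share this pattern. All 5 tested were called lower in AIMD mice, as were 16.7% of all tested genes. Their list summed to 2.79 FPKM in AIMD replicate 4, the lowest of all mice. The same mouse had the highest summed neutrophil markers, held mostly by S100a8 and S100a9, while Csf3r, Cxcr2 and Mmp9 were not highest in it. It had the highest level of Duox2, an epithelial peroxide-producing oxidase, at 28.4 FPKM. It also had the highest level of its partner Duoxa2, at 35.5 FPKM. The part of any of these in the Aqp4 level was not tested.

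**Figure D3:**
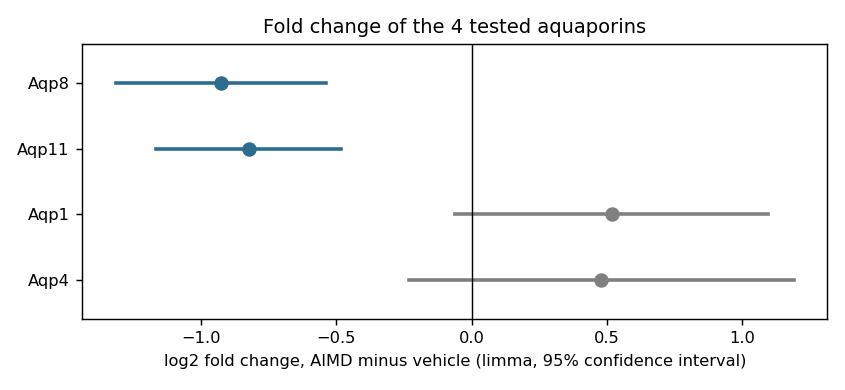
Log2 fold change (AIMD minus vehicle) with its 95% confidence interval for each tested aquaporin, with genes past an adjusted p of 0.05 in blue and the others in grey. The intervals of Aqp8 and Aqp11 lie wholly below 0, and those of Aqp1 and Aqp4 include 0.

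The aquaglyceroporins were close to the limit of detection. Aqp3 had 31 reads over all mice, Aqp7 had 33 and Aqp9 had 17. Their mean levels in AIMD and vehicle-treated mice were 0.099 and 0.170 FPKM for Aqp3, 0.069 and 0.112 FPKM for Aqp7, and 0.027 and 0.020 FPKM for Aqp9. A count of 3 reads corresponded to 0.0864 to 0.375 FPKM of Aqp3 depending on the mouse, so that most values lay near what a few reads give, and no difference was detectable at this depth.

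Single mice held much of the signal of these genes. AIMD replicate 4 had 7 of the 13 reads of Aqp3 in its group. AIMD replicate 6 had 14 of the 19 reads of Aqp7 in its group, and vehicle replicate 8 had 6 of 14. Those were also the mice with the highest Fabp6 of their groups, at 225 and 1718 FPKM. Fitted without a filter on low values, the log2 fold changes were -0.18 for Aqp3 (adjusted p = 0.368, limma), -0.09 for Aqp7 (adjusted p = 0.689) and 0.02 for Aqp9 (adjusted p = 0.751). The 0.5 FPKM added before taking log2 exceeds the mean of each of these genes in both groups. It pulls these fold changes towards 0, so they understate any difference. Of the windows of 50 bases in Aqp7 transcripts, 2.93% also occur in transcripts of other genes, so that its few reads are uncertain. None of the other aquaporins (Aqp2, Aqp5, Aqp6, Aqp12 and Mip) exceeded 0.5 FPKM in any mouse, and Mip was at 0 in all.

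**Figure D4:**
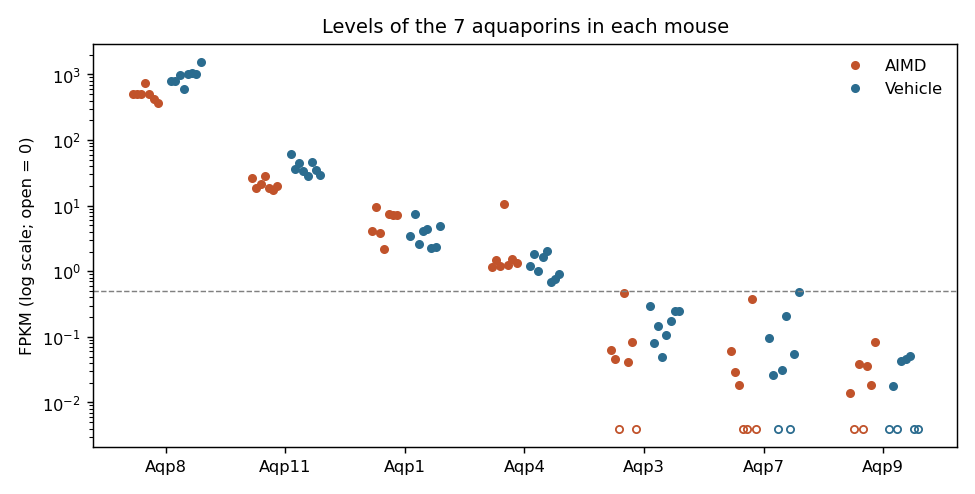
FPKM of the 7 aquaporins in each mouse on a log axis, with open circles for mice at 0 and a dashed line at 0.5 FPKM, the filter level. Levels fall from Aqp8 through Aqp11, Aqp1 and Aqp4 to Aqp3, Aqp7 and Aqp9, whose values all lie below the line.

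Per length, the order of levels was Aqp8, Aqp11, Aqp1, Aqp4, then the 3 scarce genes. Aqp8 exceeded Aqp11, and Aqp11 exceeded Aqp1, in all 15 mice. Aqp1 exceeded Aqp4 in 14 of 15, the exception being AIMD replicate 4. Aqp3 exceeded Aqp7 in 10 of 15 mice and Aqp7 exceeded Aqp9 in 8, so these neighbours could not be ordered. The place of Aqp11 rests on a length that is uncertain. The shortest length that gave whole reads in every mouse was 1322 bases, against 9418 bases of exon in GENCODE M21. With the same reads divided by the latter, Aqp11 averaged 3.05 FPKM in AIMD and 5.52 FPKM in vehicle-treated mice. So rescaled, it exceeded Aqp1 in 1 of 7 AIMD and 5 of 8 vehicle-treated mice. Reads were not counted again over the longer exons, so these are not levels under that annotation. In this rescaling the length enters its fold change only through the pseudocount of 0.5.

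The genes that varied most like each aquaporin were found from the Pearson correlation of log2 levels over the 15 mice, after each group's mean was removed. It is a description over mice that share depth, tissue make-up and the clock-gene division. For Aqp8 these were Trim40 (r = 0.87), Kctd5 (0.86) and Tuft1 (0.86). Of these, Tuft1 rose in AIMD mice (log2 fold change 0.41, adjusted p = 0.0122, limma) and the others did not pass the test. For Aqp11 they were Smim19 (0.90), the peroxide-removing Prdx6 (0.90) and Bsg, which encodes the lactate transporter partner basigin (0.89). All 3 fell in AIMD mice, with log2 fold changes of -0.67, -1.15 and -0.53. For Aqp1 they were the fatty acid desaturase Fads2 (0.88), Gtf2i (0.84) and Bms1 (0.84), which all rose in AIMD mice. For Aqp4 they were B3galt5 (0.91), Tnip3 (0.91) and Plet1 (0.88), and without AIMD replicate 4 and vehicle replicate 5 the last fell to 0.51.

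Genes of salt absorption, which sets the gradient that water follows, were followed in a list of 21. Of 19 tested, 7 were called higher in AIMD mice and 1 lower, together 42.1% beside the 36.1% called over all tested genes (19.4% higher and 16.7% lower), with a median log2 fold change of 0.31 against 0.006 over all tested genes. Slc9a3, the apical sodium and proton exchanger NHE3, rose from 0.163 ± 0.242 FPKM (SD, n = 8) to 4.81 ± 3.90 FPKM (SD, n = 7), with a log2 fold change of 2.73 (adjusted p = 2.73e-05, limma). The epithelial sodium channel subunits Scnn1g (1.16, adjusted p = 0.000118) and Scnn1a (0.85, adjusted p = 0.000362) rose too, and Scnn1b did not pass the test (0.31, adjusted p = 0.554). Every AIMD mouse exceeded every vehicle-treated mouse for Slc9a3, Scnn1a and Scnn1g, as for 5.27% of all tested genes (8.56% in either direction). Slc9a3 and Scnn1g were tested because all 7 AIMD mice, the group in which they were high, exceeded 0.5 FPKM. Their calls and lack of overlap therefore give no support to the list, although its counts, share and median include both genes.

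Genes of chloride and fluid secretion went both ways. Of 14 tested, 4 were called higher and 3 lower, 50% beside 36.1% over all tested genes. The bicarbonate-permeable channel gene Best2 (0.75) and the guanylin gene Guca2a (0.76) rose, whereas Prkg2, a cGMP-dependent kinase that acts below guanylin, fell by 1.19 on the log2 scale (adjusted p = 0.00714, limma). Gucy2c, the guanylin receptor, fell by 0.40 (adjusted p = 0.0255, limma). The chloride channel gene Cftr did not pass the test (-0.18, adjusted p = 0.502).

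Of 12 genes of hormonal and nervous control 5 were tested and 2 rose, a share of 40% that is near the 36.1% called over all tested genes. Nr3c2, the mineralocorticoid receptor, had a log2 fold change of 0.62 (adjusted p = 0.00891, limma) and Nr3c1, the glucocorticoid receptor, of 0.57 (adjusted p = 0.0285). The vasopressin receptors were under the filter. Of 6 tested genes of tonicity and osmolyte handling, only the taurine transporter gene Slc6a6 was called (0.70, adjusted p = 0.0278, limma), or 16.7% of the list, and Nfat5, the tonicity-responsive factor, was not (0.31, adjusted p = 0.0975).

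Genes handling the solutes that aquaporins can pass were listed as well. Of 14 tested genes of glycerol handling, 5 were called higher and 5 lower, 71.4% beside 36.1% over all tested genes. Gyk, the glycerol kinase gene, rose (1.24, adjusted p = 9.77e-06, limma). Mgll, whose lipase splits monoglycerides into glycerol and a fatty acid, fell by 1.67, and Lpl, the lipoprotein lipase gene, by 1.31. Of 15 tested genes of hydrogen peroxide production and removal, 6 were called lower and none higher, with a median of -0.39. That is 40% called, near the 36.1% over all tested genes, of which 16.7% were called lower. They were Cyba (-1.40), an oxidase subunit, and the removing enzymes Gpx2 (-1.39), Prdx6 (-1.15), Prdx2 (-0.71), Gpx1 (-0.57) and Cat (-0.39).

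**Figure D5:**
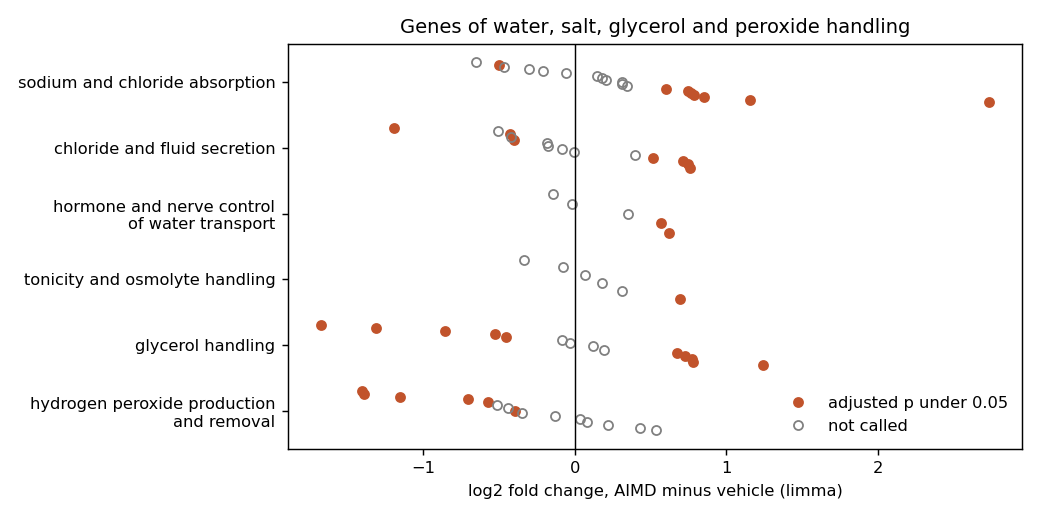
Log2 fold change (AIMD minus vehicle) of each tested gene in 6 lists of water, salt and solute handling, with genes past an adjusted p of 0.05 filled and the others open. Slc9a3 of the salt absorption list lies farthest to the right at 2.73 and was tested only through the AIMD group, where it was high. All called genes of hydrogen peroxide handling lie to the left.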

How the data were processed

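Ceca of 7 AIMD and 8 vehicle-treated mice were profiled by stranded poly-A sequencing with 50-base single reads. The authors mapped reads to GRCm38 with STAR and counted them per gene with featureCounts and a GENCODE annotation, whose release and strand setting are not given in the sources used here, and deposited FPKM. The members and gene lists were chosen with earlier results of these data known.

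Whole reads were recovered from the FPKM for 99.96% of the 24279 genes above 0 (tolerance 0.02 reads). With the GENCODE M21 exon length this held for 68.1%, and a further 7745 genes, Aqp4, Aqp8 and Aqp11 among them, gave whole reads with another length, the shortest that did so for every mouse. The 4 rows with repeated symbols were left out. Size factors by the median of ratios, which were nearly equal, were taken out and 0.5 was added before taking log2, so fold changes of low genes are understated. Genes with at least 0.5 FPKM in at least 7 mice (11983) were tested with limma 3.58.1 (R 4.3.3, trend), two-sided, with Benjamini-Hochberg adjustment over all of them. The study's count model had time of sacrifice as a factor. The labels give no such times, so the main model here has no such term. Labels do not say whether mice shared cages or litters. Single values were also tested by exact permutation (smallest p 0.000155). Genes named were all members, the other aquaporins, in each list the 3 called genes of largest change, and the 3 genes most like each tested member. Further list genes were added by name after their values were seen. Alternatives were other pseudocounts, filters and scalings, limma voom on the recovered reads, limma without trend, a replicate block, a clock-gene covariate and each mouse left out in turn. The limma fit and the recovery of reads were also run on simulated data without shared differences in clock genes or tissue make-up. The outcome is not given here.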

Additional observations from a re-analysis of the deposited data

Results flagged for a closer look

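Of 14 sets of values (7 aquaporins in both groups), 6 held a mouse whose distance to the nearest other mouse, as a share of the group's range, passed Dixon's 95% limit. Chance alone passes it in about 1 of 20 groups where values are independent and normally distributed. Here the sets shared mice, and Aqp3 and Aqp7 had few reads, so the number of flags cannot be set against that rate. AIMD replicate 4 was the highest of its group for Aqp4 (10.54 FPKM), Aqp8 (732.6 FPKM) and Aqp3 (0.4596 FPKM). Vehicle replicate 8 was the highest of its group for Aqp8 (1534.2 FPKM) and Aqp7 (0.4848 FPKM), and AIMD replicate 6 for Aqp7 (0.3768 FPKM). Without AIMD replicate 4 and vehicle replicate 8 together, mice chosen after seeing the data, the log2 fold change was -0.92 for Aqp8 (adjusted p = 0.000327, limma), -0.94 for Aqp11 (adjusted p = 0.000409) and 0.07 for Aqp4 (adjusted p = 0.77).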

How the results depend on the processing

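Aqp8 and Aqp11 stayed lower in AIMD mice, and Aqp1 stayed higher, under every alternative run. Leaving out each mouse in turn gave -1.02 to -0.826 for Aqp8 (adjusted p 0.000443 to 0.00356, limma), -0.887 to -0.73 for Aqp11 (0.000627 to 0.00353), 0.387 to 0.712 for Aqp1 (0.0334 to 0.293) and 0.114 to 0.563 for Aqp4 (0.224 to 0.641). It gave 2 to 3 aquaporins called and 3563 to 4616 genes called, against 4320. Aqp1 passed the threshold without AIMD replicate 4 (0.712) and without that mouse and vehicle replicate 8 (0.763, adjusted p = 0.0258). Relative to endothelial markers, added later, it was 1.068 with an unadjusted p of 0.00995 (exact permutation test), which was not adjusted over genes. The planned clock-gene score was centred within each group and so could not move a fold change by construction. It bears only on the error. The score left uncentred and the score above or below 0 as a term, both added after the data were seen, gave -0.919 and -0.946 for Aqp8 and -0.832 and -0.808 for Aqp11. Within the mice with a score above 0, also added later, Aqp8 was -0.632 (exact permutation test, p = 0.0571) and Aqp4 turned to -0.079, against 0.937 below 0. Within those below 0, Aqp11 was -0.694 (exact permutation test, p = 0.0571). Each has fewer mice, and the smallest possible p was 0.0286. With the same reads divided by the GENCODE M21 length, and not counted again, Aqp11 averaged 3.047 FPKM in AIMD and 5.524 FPKM in vehicle-treated mice. Salt absorption had 2 genes called lower without vehicle replicate 8. With no filter, hormonal control had 1 gene called lower and tonicity 0 called higher, and tonicity had 2 called higher without vehicle replicate 8. The cause of these moves was not tested.

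Mice with the same replicate number had correlations of -0.35 to 0.432 over 7 pairs, and only replicate 7 correlated best with the vehicle-treated mouse of its own number. Replicates 1 to 3 and 5 to 7 lay on the same side of the clock-gene score in both groups. Whether the numbers pair the mice was not tested. With the replicate block, 4652 genes and 2 aquaporins were called, with -0.827 for Aqp8 (adjusted p = 0.00859, limma) and -0.878 for Aqp11 (adjusted p = 0.001), and the block changed no call of an aquaporin. Depth limits Aqp3, Aqp7 and Aqp9.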
